A study of Mus musculus with 36 samples.

Results

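Described here are 10 genes whose products modify and crosslink collagen in mouse pancreatic fibroblasts: the lysyl oxidases Lox, Loxl1, Loxl2, Loxl3 and Loxl4, the lysyl hydroxylases Plod1, Plod2 and Plod3, the prolyl 3-hydroxylase P3h1, and Serpinh1, which encodes the collagen chaperone HSP47. They were picked by name from the 39017 genes of the count table. Of the 10, 9 were found by their symbol and P3h1 by its Ensembl identifier, because the table lists it under the older symbol Lepre1. All 10 passed the filter on low counts, as did 14439 genes in all.

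The fibroblasts came from C57BL/6 mice, and 36 RNA-seq libraries were made from them. In 4 libraries the fibroblasts had grown alone (mono-culture, titled PSC in the labels). In the other 32 they had been in direct contact for 48 h with 1 of 8 tumour lines, at 4 libraries per line: clones E, H, K, M, N, T and V, and KPC1, a name that the labels do not explain. Tumour cells expressed GFP and were removed by FACS (fluorescence-activated sorting). Neither a genotype beyond the strain nor a drug is given for any group, and it is not stated whether the mono-culture was sorted too. Nor do the labels say whether replicates were separate cultures, so p-values measure only the spread between these samples, which may be technical.

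Collagen chains are modified in the endoplasmic reticulum before they are secreted. Lysyl hydroxylases (Plod genes) turn chosen lysines into hydroxylysines, P3h1 acts on prolines in a complex with Crtap and the cyclophilin encoded by Ppib, and HSP47 binds the folded triple helix and escorts it to the Golgi. Outside the cell, once the propeptides have been cut off, the copper-dependent lysyl oxidases convert lysines and hydroxylysines to aldehydes that react to form crosslinks between collagen molecules, and Lox and Loxl1 also act on elastin. Fibroblasts are the main source of the crosslinked collagen that surrounds pancreatic tumour cells.

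For 5 of the 10 genes a RefSeq promoter sequence was used: Loxl4, Plod1, Plod3, P3h1 and Serpinh1. Lox, Loxl1, Loxl2, Loxl3 and Plod2 were not among them. The windows were the bases within 250 before the start site that lie in no annotated exon. Those of Loxl4, which was higher in most co-cultures, and of Serpinh1 and Plod1, which were called in none, are given because Plod2 and lysyl oxidases are textbook targets of the hypoxia-inducible factors. Capitals mark the core of the hypoxia response element, ACGTG or GCGTG, on either strand (CACGT or CACGC when read on the strand shown). The windows lie at chr19:42612814-42613056, chr7:99353240-99353489 and chr4:147936777-147937026 of GRCm38.p6, all on the minus strand, and are written 5′ to 3′.
Loxl4: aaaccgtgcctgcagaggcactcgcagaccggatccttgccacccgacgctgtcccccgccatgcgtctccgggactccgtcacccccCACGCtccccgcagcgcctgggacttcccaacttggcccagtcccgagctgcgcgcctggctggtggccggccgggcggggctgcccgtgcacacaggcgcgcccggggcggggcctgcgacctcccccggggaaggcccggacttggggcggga
Serpinh1: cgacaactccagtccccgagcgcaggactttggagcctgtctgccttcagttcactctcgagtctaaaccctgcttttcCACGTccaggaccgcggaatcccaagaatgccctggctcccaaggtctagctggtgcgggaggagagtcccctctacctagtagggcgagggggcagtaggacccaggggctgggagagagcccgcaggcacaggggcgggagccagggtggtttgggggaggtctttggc
Plod1: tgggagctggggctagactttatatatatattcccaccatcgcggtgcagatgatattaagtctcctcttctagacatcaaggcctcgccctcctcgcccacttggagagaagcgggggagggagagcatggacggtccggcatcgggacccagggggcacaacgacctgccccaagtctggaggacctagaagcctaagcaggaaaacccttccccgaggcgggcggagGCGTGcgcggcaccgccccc
Loxl4 and Plod1 each held 1 GCGTG and Serpinh1 held 1 ACGTG, whereas 28.1% and 16.6% of 32817 mouse promoters of 250 bases held at least 1 GCGTG or ACGTG. Exon bases were left in for these shares and those below, so they are not strictly comparable with the exon-free windows, some of which were shorter. Of the other windows, that before the upstream start of P3h1 held 2 GCGTG that before its second start held none, and that of Plod3, in which 42 bases were free of exons, held none. Another 4 motifs were searched on both strands: GGAATG for TEAD factors (in 12.6% of promoters), CAGACA for SMAD factors (17.1%), TGACTCA for AP-1 (4.46%) and the heat shock element GAANNTTC (6.69%). The single match among these 5 genes was 1 CAGACA in the Serpinh1 window, which overlapped no other match. A match of letters is a description and not evidence of binding.

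Library totals ran from 12532122 to 21985538 counts and TMM scaling factors from 0.957 to 1.07. The 8 fibroblast markers were detected in every group, with a summed level of 6189 to 14563 CPM (counts scaled to library size with TMM factors). The 11 tumour epithelial markers summed to between 2.81 and 4.29 CPM in the mono-culture and to between 20.7 and 800.9 CPM in the co-cultures, at most 0.0801% of the counts of a library. Epcam was at 0 in all 4 libraries with clones E, H, T and V, and Cldn4 in every group other than clone T. The 7 immune and endothelial markers summed to between 3.51 and 16.7 CPM, with Cd3e at 0 throughout. In bulk RNA, fewer cells of a type and less RNA per cell cannot be told apart.

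The 10 genes spanned a wide range of levels. Per length, as the mean RPKM (reads scaled by gene length and library size) of the 36 libraries, Serpinh1 led with 583.7 and Lox followed with 400.6. Loxl1 came next at 108.4, ahead of Plod3 at 52.7 and Plod2 at 36.7. P3h1 (28.4), Loxl4 (25.1), Plod1 (24.9) and Loxl3 (21.1) lay close together, and Loxl2 was the lowest of the 10 at 7.16. Lox was also the most variable of them: its highest and lowest group means of log2 CPM differed 8.13-fold, against 3.06-fold for Loxl1 and 1.18-fold for P3h1, the steadiest of the 10.

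The question asked of each co-culture was which of these genes differed from the mono-culture. Tests were made with edgeR (quasi-likelihood, Benjamini-Hochberg adjustment over 14439 genes), and a gene was called at an adjusted p under 0.05. The 8 comparisons share the 4 mono-culture libraries and are not independent of each other. With clone E, 2 of the 10 genes were called higher (Loxl3 and Loxl4) and 0 lower, where 16.5% of all genes tested were called higher and 15.5% lower. With clone H, 3 were higher (Loxl3, Loxl4 and Plod3) and 2 lower (Lox and Loxl1), beside 27.8% and 26.4% of all genes. With clone K, 2 were higher (Lox and Loxl3) and 0 lower, beside 10.4% and 8.69%. With clone M, only Loxl3 was called of the 10, as higher, beside 12.2% higher and 10.8% lower among all genes. With clone N, 3 were higher (Loxl3, Loxl4 and Plod3) and 0 lower, beside 19.7% and 19.2%. With clone T, the same 3 were higher and 3 were lower (Lox, Loxl1 and Plod2), beside 25% and 24.7%. With clone V, 4 were higher (Loxl3, Loxl4, Plod2 and Plod3) and 2 lower (Lox and Loxl1), beside 29.4% and 28.9%. With KPC1, 3 were higher (Loxl3, Loxl4 and Plod3) and 2 lower (Lox and Loxl1), beside 30.5% and 28.5%. For the mean of the 7 clones, 3 were higher (Loxl3, Loxl4 and Plod3) and 1 lower (Loxl1), beside 24.3% and 24.9% of all genes. The median log2 fold change of the 10 was -0.05 in that contrast, against 0.01 over all genes tested. Counted over the 80 pairs of gene and line, 21 were called higher, 9 lower and 50 neither. Depending on the line, 10.4% to 30.5% of all genes were called higher and 8.69% to 28.9% lower. An F-test among the 7 clones called 7 of the 10 (Lox, Loxl1, Loxl3, Loxl4, Plod2, Plod3 and Serpinh1), beside 67.5% of all genes. For clones E and M the number called depended on the fit: with only the 8 libraries compared, Loxl1 and Plod1 were added as lower with clone E (4 called) and Loxl4 as higher with clone M (2 called), and without mono-culture replicate 3 or clone M replicate 2, Serpinh1 was the added gene with clone M (2 called).

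**Figure D1:**
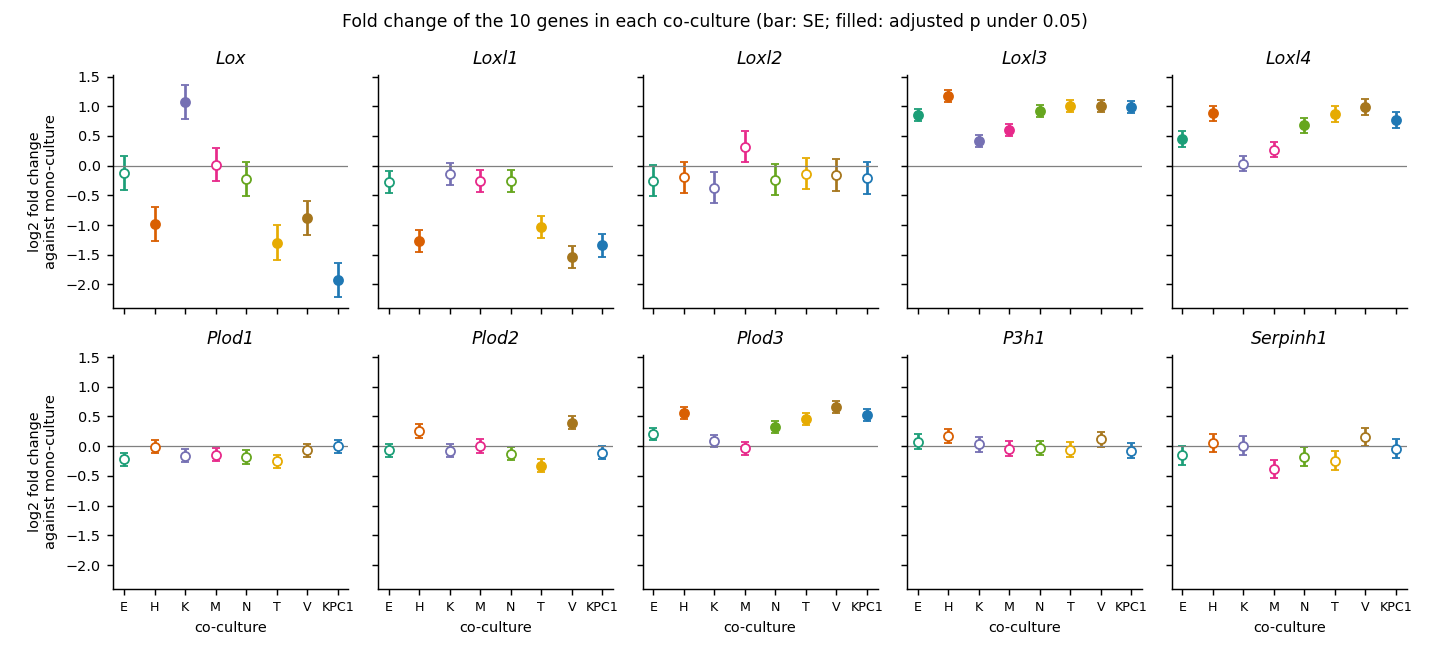
Log2 fold change against the mono-culture of the 10 genes (panels) in each of the 8 co-cultures (x axis). Points are edgeR estimates from 4 libraries against 4, bars are standard errors, and filled points have an adjusted p under 0.05; Loxl3 was above 0 and filled in all 8, while Lox ran from -1.92 with KPC1 to 1.07 with clone K.

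Lox, the founding lysyl oxidase, was higher with 1 line and lower with 4. In the mono-culture its 4 libraries read 2082, 2564, 1875 and 1877 CPM. With clone K they read 3154, 4922, 4894 and 4658 CPM, all above each mono-culture library (2.10-fold higher, log2 fold change 1.07, SE 0.29, adjusted p = 0.0076). With KPC1 they read 335, 573, 596 and 709 CPM, all below each mono-culture library (3.80-fold lower, log2 fold change -1.92, SE 0.29, adjusted p = 1.9e-06). Clone T gave 587, 616, 736 and 1486 CPM, and the last of these stood apart from the other 3 yet still lay below the mono-culture (2.45-fold lower, adjusted p = 0.00042). Clone H gave 747, 1273, 815 and 1410 CPM (1.98-fold lower, adjusted p = 0.0044) and clone V gave 825, 1272, 981 and 1505 CPM (1.83-fold lower, adjusted p = 0.0095). Neither group overlapped the mono-culture. With clone M the libraries (2174, 2618, 1534 and 2179 CPM), with clone E (1186, 2856, 2057 and 1636 CPM) and with clone N (1509, 2394, 1583 and 1711 CPM) straddled those of the mono-culture or overlapped them. Their log2 fold changes were 0.02, -0.12 and -0.22 with an SE of 0.28 each, and none was called. Replicates of Lox were the noisiest of the 10 genes, with a median coefficient of variation of 26.4%. In the order of group means, clone K lay above clone M and clone N above clone V without overlap of libraries, clone T lay above KPC1 by more than the pooled SD but with overlap, and the other 5 pairs of neighbours lay within their spread. The mean of the 7 clones was not called (log2 fold change -0.34, SE 0.21, adjusted p = 0.17), while the F-test among them was (adjusted p = 1.4e-07). Under 1 of 9 other settings, with the replicate number as a block in the fit, that mean was called lower (log2 fold change -0.38, adjusted p = 0.045). Whether KPC1 differed from the clones was not tested.

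Loxl1 (chromosome 9, 58287738 to 58313186, minus strand, GRCm38), the paralogue best known for its role in elastic fibres, was lower with clones H, T and V and with KPC1. Its mono-culture libraries were close together at 549, 527, 520 and 522 CPM. Clone V gave 105.5, 259.1, 154.8 and 210.9 CPM (2.90-fold lower, log2 fold change -1.54, SE 0.19, adjusted p = 5.3e-08). KPC1 gave 193, 181, 234 and 228 CPM (2.54-fold lower, adjusted p = 4.6e-07), clone H 257, 234, 169 and 220 CPM (2.41-fold lower, adjusted p = 1.6e-06), and clone T 250, 256, 278 and 248 CPM (2.05-fold lower, adjusted p = 3.1e-05). No library of these 4 groups overlapped the mono-culture. With clones E, K, M and N the group means were 436, 479, 441 and 442 CPM, with SDs of 67.1, 96.1, 86.1 and 74.4 CPM, and none was called, although all 4 libraries with clone E lay below the mono-culture. In the order of group means clone E lay above clone T with no overlap, and the 5 groups above that step, the mono-culture at the top, did not differ from their neighbours beyond their spread. Of the 10 genes it was the only 1 called lower in the mean of the 7 clones in the fit used (1.61-fold, log2 fold change -0.68, SE 0.13, adjusted p = 7.3e-05), with 24 of 28 libraries below every mono-culture library. Loxl1 differed among the clones (F-test, adjusted p = 6.2e-08).

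**Figure D2:**
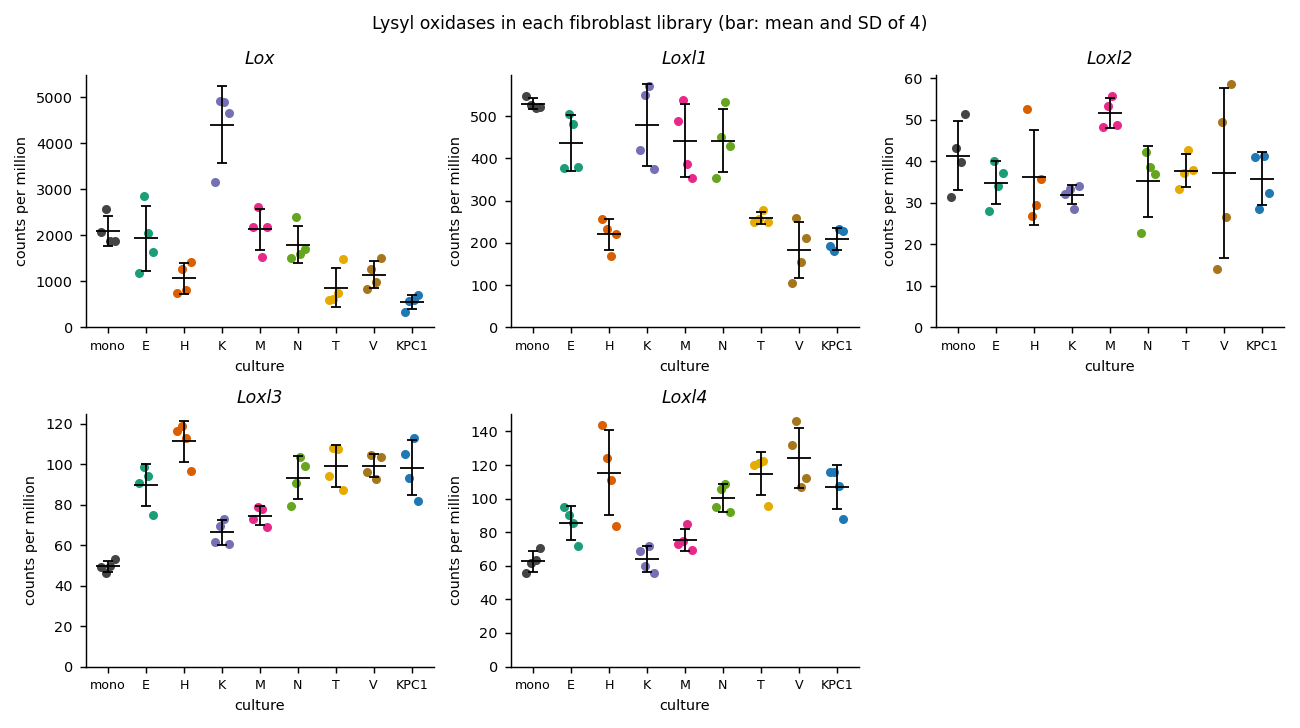
CPM of the 5 lysyl oxidases (panels, linear y axes from 0) in each of the 36 libraries, grouped by culture on the x axis. Points are libraries, and the horizontal and vertical bars are the mean and SD of 4; Loxl3 in all 32 co-culture libraries lay above the mono-culture, Loxl1 lay below it with H, T, V and KPC1, and Lox lay above it with clone K.

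Loxl3 (chromosome 6, 83034173 to 83052562, plus strand, GRCm38), an oxidase with scavenger receptor domains, was higher in all 8 co-cultures. Its mono-culture libraries read 49.3, 46.2, 49.5 and 53.0 CPM, and all 32 co-culture libraries were above them. With clone H they read 116.5, 118.7, 113.0 and 96.8 CPM (2.25-fold higher, log2 fold change 1.17, SE 0.10, adjusted p = 2.2e-10). The smallest rise was with clone K, at 61.8, 69.7, 73.1 and 60.6 CPM (1.34-fold higher, log2 fold change 0.42, SE 0.10, adjusted p = 0.0031). With clone M it was 1.51-fold higher and with clones E, N, T and V and KPC1 between 1.81-fold and 2.01-fold higher. The mean of the 7 clones was 1.80-fold higher (adjusted p = 7.1e-10) and the F-test among clones was called (adjusted p = 1.4e-06). In the order of group means, the step from clone K down to the mono-culture was without overlap, and those from H to V, E to M and M to K were larger than the pooled SD with overlap. On the genome, 535 of the 4603 exon bases of Loxl3 are shared with Htra2 on the opposite strand, and whether counting used strand is not stated. Htra2, which encodes a mitochondrial protease, averaged 47.6 CPM and was called higher with 6 of the 8 lines (log2 fold changes 0.18 to 0.74). If strand was not used, reads from the shared stretch could not be told apart between Loxl3 and Htra2. How such reads were counted is not stated, and their part in the level of Loxl3 was not tested.

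Loxl4 (chromosome 19, 42593982 to 42612813, minus strand, GRCm38), whose promoter is printed above, was higher with 6 of the 8 lines. Its mono-culture libraries read 55.5, 61.5, 63.3 and 70.3 CPM. With clone V they read 131.7, 146.0, 107.1 and 112.2 CPM (1.98-fold higher, log2 fold change 0.99, SE 0.13, adjusted p = 1.7e-07), with clone H 143.6, 123.9, 111.0 and 83.6 CPM (1.84-fold, adjusted p = 1.5e-06) and with clone T 119.9, 121.4, 122.5 and 95.5 CPM (1.83-fold, adjusted p = 2.2e-06). Each of these libraries was above each of the mono-culture. KPC1 (1.70-fold, adjusted p = 8.4e-06), clone N (1.60-fold, adjusted p = 0.0001) and clone E (1.37-fold, adjusted p = 0.0082) were also called with no overlap. With clone K the libraries (69.1, 60.1, 71.9 and 55.5 CPM) covered the same range as the mono-culture (log2 fold change 0.03, SE 0.13, adjusted p = 0.90), and with clone M (73.2, 74.8, 84.6 and 69.3 CPM) the rise was not called (log2 fold change 0.27, SE 0.13, adjusted p = 0.14). Loxl4 differed among the clones (F-test, adjusted p = 4.3e-07).

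Loxl2 (chromosome 14, 69609068 to 69695834, plus strand, GRCm38), the oxidase known for crosslinking basement membrane collagen, was called in none of the 8 comparisons. Its mono-culture libraries read 31.3, 43.1, 39.7 and 51.3 CPM, and its log2 fold changes ran from -0.37 with clone K to 0.32 with clone M, with an SE of 0.26 each and adjusted p-values from 0.35 to 0.70. The 4 libraries with clone V ran from 14.0 to 58.6 CPM, wider than the mono-culture. The F-test among clones was not called (adjusted p = 0.26), but was without clone V replicate 1, the lowest of these libraries (adjusted p = 0.046). Of its exon bases, 301 of 5405 lie opposite the antisense gene Gm27177, which had no counts in any library.

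Summed per length, transcripts of the 5 lysyl oxidases followed Lox. The sum was 696 RPKM in the mono-culture (SD 61.5, n = 4), 1177 RPKM with clone K (SD 193) and 242 RPKM with KPC1 (SD 37.9). Lox made up 70.2% of the sum in the mono-culture (SD 3.08), 84.0% with clone K (SD 2.71) and 49.4% with KPC1 (SD 8.29). In the mono-culture Loxl3 held 1.83% (SD 0.27) and Loxl4 2.54% (SD 0.427) of it. With KPC1 they held 9.96% (SD 2.39) and 11.9% (SD 3.07), with no library of either share overlapping those of the mono-culture. Within a library the RPKM ratio of Loxl3 to Lox was 0.0262 in the mono-culture (SD 0.00486), 0.0168 with clone K (SD 0.00315), 0.147 with clone T (SD 0.0570) and 0.213 with KPC1 (SD 0.0924). A share can rise because another gene fell, so these ratios describe composition only.

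**Figure D3:**
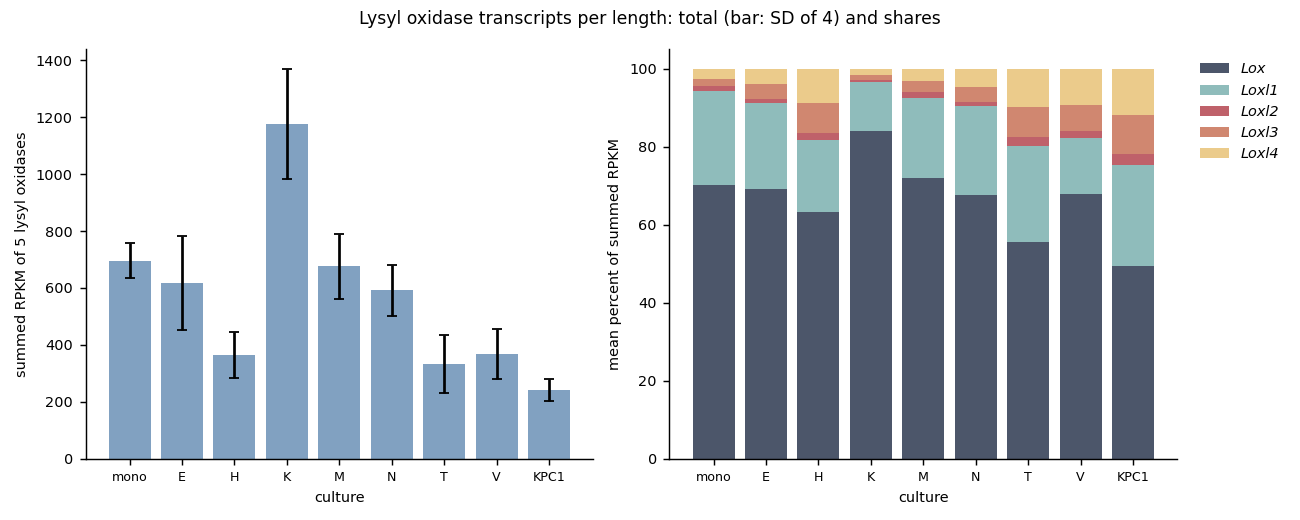
Left, summed RPKM of the 5 lysyl oxidases by culture (bars, mean of 4 libraries; error bars, SD). Right, mean percent of that sum held by each gene; the sum was 1177 RPKM with clone K and 242 RPKM with KPC1, and the Lox share was 84.0% and 49.4%.

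Among the lysyl hydroxylases, Plod3 moved most often. Plod3 (chromosome 5, 136987019 to 136996648, plus strand, GRCm38) encodes the family member that also carries glycosyltransferase activity. Its mono-culture libraries read 135.8, 139.2, 121.5 and 155.7 CPM. With clone V they read 193.6, 219.5, 210.9 and 249.0 CPM (1.58-fold higher, log2 fold change 0.66, SE 0.10, adjusted p = 3.2e-06), and with clone H 194.1, 224.2, 202.3 and 194.4 CPM (1.48-fold, adjusted p = 4.2e-05). Both groups were clear of the mono-culture, as were KPC1 (196.2, 211.1, 198.7 and 188.8 CPM, 1.44-fold, adjusted p = 7.6e-05) and clone T (165.8, 224.5, 181.2 and 185.1 CPM, 1.37-fold, adjusted p = 0.00059). With clone N, 3 of 4 libraries were above the mono-culture (1.25-fold, adjusted p = 0.015), a call lost without mono-culture replicate 1 (adjusted p = 0.056) or 3 (0.0505) or clone N replicate 4 (0.078). With clones E, K and M the log2 fold changes were 0.20, 0.08 and -0.04 with an SE of 0.10 each, and none was called. The F-test among clones was called (adjusted p = 3.2e-06), although no neighbours in the order of group means differed by more than their spread. Of its exon bases, 529 of 4519 are shared with Znhit1 on the opposite strand. Znhit1, a gene of a chromatin remodelling complex, moved the other way, with log2 fold changes from -0.70 to -0.15 and 5 of 8 called.

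Plod2 (chromosome 9, 92542223 to 92608428, plus strand, GRCm38), the lysyl hydroxylase known for the collagen telopeptides, was higher with 1 line and lower with another. Its mono-culture libraries read 122.5, 134.0, 127.5 and 150.4 CPM. With clone V they read 160.1, 196.6, 146.2 and 200.6 CPM, 3 of 4 above the mono-culture (1.32-fold higher, log2 fold change 0.40, SE 0.11, adjusted p = 0.0030). With clone T they read 97.4, 114.6, 97.0 and 116.0 CPM, all below it (1.26-fold lower, log2 fold change -0.33, SE 0.11, adjusted p = 0.015). That call was lost without mono-culture replicate 4 (adjusted p = 0.069), clone T replicate 1 (0.0501) or clone T replicate 3 (0.057). With clone H the libraries (164.9, 186.6, 139.6 and 146.8 CPM) gave a log2 fold change of 0.26 (SE 0.11) that was not called (adjusted p = 0.053), but was when any of 6 libraries was left out: mono-culture replicate 4 (adjusted p = 0.026), clone H replicate 3 (0.029) or 4 (0.042), clone M replicate 2 (0.048), or clone V replicate 3 (0.045) or 4 (0.049). In the other 5 comparisons log2 fold changes lay between -0.13 and 0.00. Plod2 differed among the clones (F-test, adjusted p = 1.7e-05). The RPKM ratio of Plod2 to Plod3 was 0.868 in the mono-culture (SD 0.0543), 0.506 with clone T (SD 0.0467) and 0.557 with KPC1 (SD 0.0256), with no overlap of libraries between the mono-culture and either of these groups.

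Plod1 (chromosome 4, 147909753 to 147936767, minus strand, GRCm38), the hydroxylase of lysines within the triple helix, was not called in any comparison. Its mono-culture libraries read 104.0, 114.3, 105.9 and 116.8 CPM. The log2 fold changes ran from -0.25 with clone T to just under 0 with KPC1, with an SE of 0.11 each. With clone E all 4 libraries (92.5, 103.7, 86.7 and 95.4 CPM) lay below the mono-culture, at an adjusted p of 0.13. Clone T came nearest to a call (adjusted p = 0.058), and was called without clone T replicate 2 (adjusted p = 0.020) or clone V replicate 1 (0.038). It was also called lower with clone T under 6 of 10 other settings, with clone E under 4 of 10 and in the mean of the 7 clones under 4 of 9, so that its lack of a call rests on the fit used. The F-test among clones was not called (adjusted p = 0.39). P3h1 (chromosome 4, 119232915 to 119248975, plus strand, GRCm38) varied least: its mono-culture libraries read 79.9, 93.3, 91.5 and 91.5 CPM and its log2 fold changes ran from -0.08 to 0.17 with an SE of 0.12 each. None was called, but clone H (117.5, 113.5, 96.8 and 74.3 CPM) was without its replicate 4, the lowest of them (log2 fold change 0.29, adjusted p = 0.039). The F-test among clones was not called either (adjusted p = 0.45).

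**Figure D4:**
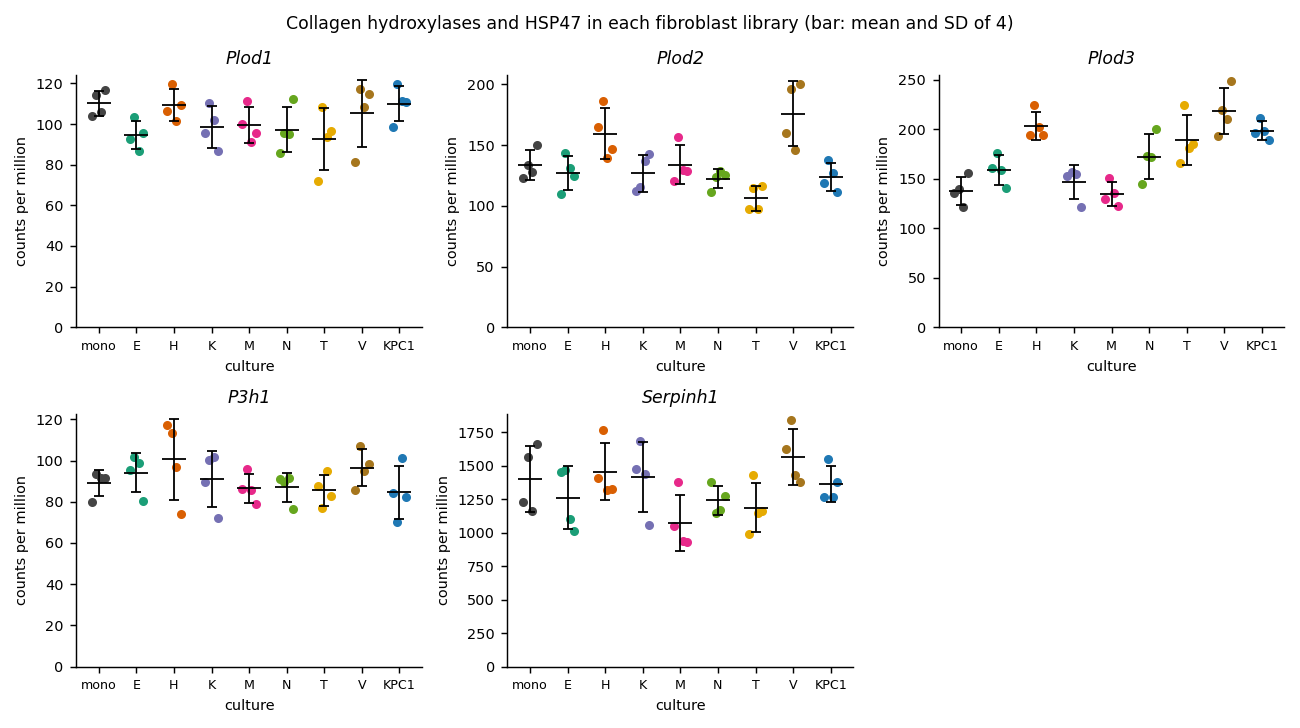
CPM of Plod1, Plod2, Plod3, P3h1 and Serpinh1 (panels, linear y axes from 0) in each of the 36 libraries by culture. Points are libraries and bars the mean and SD of 4; Plod3 was clear of the mono-culture with H, T, V and KPC1, and P3h1 group means ran from 84.5 to 100.5 CPM.

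Serpinh1 (chromosome 7, 99345376 to 99353239, minus strand, GRCm38) was abundant in every library, from 933 to 1837 CPM, and was called in none of the 8 comparisons with the mono-culture. The mono-culture libraries read 1226, 1562, 1159 and 1658 CPM. The lowest group was clone M, at 1045, 1374, 940 and 933 CPM (log2 fold change -0.38, SE 0.15, adjusted p = 0.070), 3 of 4 below the mono-culture. The highest was clone V, at 1621, 1837, 1427 and 1376 CPM (log2 fold change 0.16, SE 0.15, adjusted p = 0.39). No neighbours in the order of group means differed by more than their spread. The F-test among the 7 clones was called (adjusted p = 0.031), and was lost without clone M replicate 1 (adjusted p = 0.063), 3 (0.078) or 4 (0.069) or clone V replicate 1 (0.054) or 2 (0.081). The clone M difference was called without mono-culture replicate 3 (adjusted p = 0.049) or clone M replicate 2 (0.017). It was also called lower under 5 of 10 other settings, so that its lack of a call rests on the fit used.

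Within the co-cultures, Serpinh1 ran against the trace of epithelial RNA. In 8 of 8 co-cultures the library with the lowest summed CPM of tumour epithelial markers had the highest Serpinh1, and in 6 of 8 the library with the most marker had the lowest. With clone T, for example, the marker sums of the 4 libraries were 801, 289, 398 and 513 CPM and Serpinh1 was 992, 1433, 1148 and 1164 CPM. With clone K the sums were 53.1, 20.7, 237 and 306 CPM and Serpinh1 was 1475, 1686, 1433 and 1056 CPM. On the log2 scale (marker sum plus 1 CPM), after group means were taken out, Pearson's r over the 32 libraries was -0.80 and Spearman's rho -0.81, and r was -0.75 without the 2 libraries farthest from the median of the marker measure. These values are given as a description, and the share of all genes tested with such a relation was not computed. In 7 of the 8 co-cultures the library with the least marker was number 2, and the labels do not say what a number stands for. Plod1 was highest where the marker was lowest in 7 of 8 co-cultures (r = -0.40), while for the other 8 genes this held in 1 to 6 of 8 and r lay between -0.29 and 0.20. The part of the marker, or of the library number, in these levels was not tested.

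**Figure D5:**
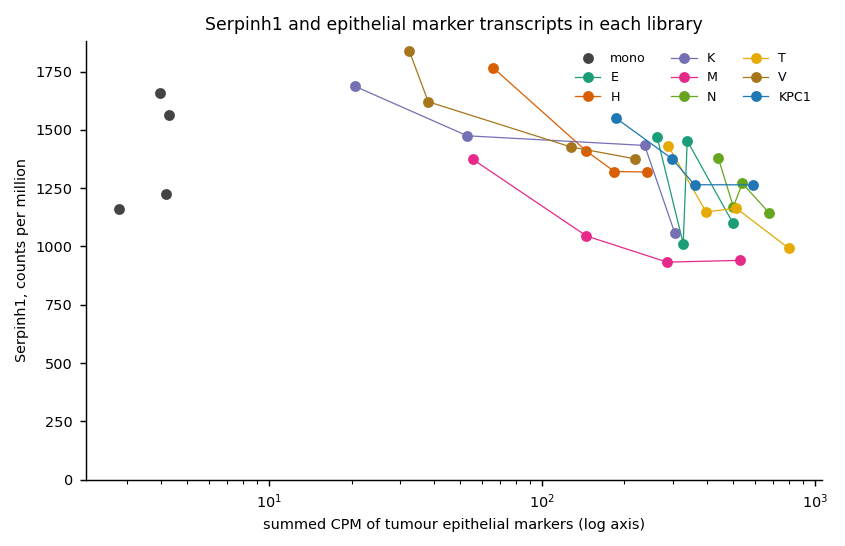
Serpinh1 (CPM, y axis from 0) against the summed CPM of the tumour epithelial markers (x axis, log scale) in each of the 36 libraries. Colours are cultures, and lines join the 4 libraries of a co-culture in order of marker sum; the leftmost library of each of the 8 co-cultures is its highest in Serpinh1.

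The 10 genes fell into patterns that can be described by their likeness over the 36 libraries (Pearson's r of log2 CPM, libraries that share groups and a control). Loxl3 and Loxl4 were the most alike (r = 0.88, and 0.65 within groups), and each was like Plod3 (r = 0.79 and 0.80). Within groups the likeness to Plod3 was 0.60 for Loxl3 and 0.27 for Loxl4. Lox and Loxl1 were alike too (r = 0.75, 0.44 within groups), and Lox ran against Loxl4 (r = -0.74). Among 11695 genes with a mean of at least 2 CPM, the 2 most like Lox were Lum (r = 0.92), a collagen-binding proteoglycan, and Lmod1 (0.90), a smooth muscle actin nucleator. Those most like Loxl1 were the complement proteases C1ra (0.95) and C1s (0.95). For Loxl3 they were Cnpy4 and Ado (0.93 each), for Loxl4 Tnfaip2 and Sh2b3 (0.92 each), and for Plod3 Sec62 (0.92) and Zbtb7b (0.91). Likeness was lower for Serpinh1 (Fer 0.81 and Adcy1 0.79), P3h1 (Apaf1 0.82 and Copg1 0.78), Plod2 (Sulf1 0.74 and Ust 0.70) and Plod1 (Kcnab2 0.72 and Arf1 0.69). For Loxl2 they were RP23-103I12.13 (0.88) and 2310067B10Rik (0.66), and whether the former shares sequence with Loxl2 was not checked, as its position is not in the annotation used here.

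Other genes of the pathway were counted in the same fit, in lists chosen with earlier results known. In the mean of the 7 clones 24.3% of all genes tested were called higher and 24.9% lower, and each count of a list is to be read against these shares. Of 14 genes of collagen modification and folding, 13 were tested (not Colgalt2), and in the mean of the 7 clones 5 were higher and 2 lower. P4ha3, a prolyl 4-hydroxylase subunit, rose from 16.4 CPM (SD 0.576) to between 29.6 and 65.3 CPM with the clones (log2 fold change 1.42, adjusted p = 4.1e-11), and Tmem38b, an endoplasmic reticulum cation channel, also rose (0.74, adjusted p = 5.6e-07), though not with clone M (12.5 CPM, against 12.3 in the mono-culture). The 2 that fell were P3h2, a paralogue of P3h1 (-0.78, adjusted p = 0.0015), and Crtap, the partner of P3h1 (-0.35, adjusted p = 0.0022). Neither fell with every line. P3h2 was called lower with clones E, M, N and T, while its means with clones H and V (16.1 CPM each) were near the 17.1 CPM of the mono-culture (SD 4.61). Crtap was called lower with clones H, T and V and KPC1. Crtap averaged 105 CPM in the mono-culture (SD 7.06), 64.4 with clone H (SD 7.30), 57.6 with clone V (SD 13.4) and 66.9 with KPC1 (SD 2.30), where P3h1 was not called, but 106.7 with clone K (SD 17), 101.1 with clone M (SD 11.5) and 94.6 with clone E (SD 14.6). The median log2 fold change of the list was -0.02.

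Of 8 genes of propeptide processing, 6 were tested (not Tll2 or Adamts3), with 2 higher and 1 lower in the mean of the 7 clones and a median log2 fold change of 0.16. Tll1, a procollagen C-proteinase, rose from 8.11 CPM (SD 0.989) to between 22.8 and 52.3 CPM with the clones (log2 fold change 2.14, adjusted p = 2.3e-09). Of the enhancers of that cleavage, Pcolce2 rose (1.49, adjusted p = 1.8e-08) and the far more abundant Pcolce fell (-0.59, adjusted p = 7.3e-05), from 1146 CPM (SD 48.9) to 470.4 with clone V (SD 125.7) and 428.7 with KPC1 (SD 61.9). With clones E, K and M Pcolce averaged 971.5, 1083 and 988.5 CPM and was not called. Adamts2, the procollagen N-proteinase, was not called (0.11, adjusted p = 0.42).

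Of 8 genes of collagen export from the endoplasmic reticulum, 2 were higher and 0 lower in the mean of the 7 clones, with a median log2 fold change of 0.03. Preb rose slightly (0.21, adjusted p = 0.0013). Mia2 had 0 counts in all 4 mono-culture libraries and group means of 0.340 to 2.94 CPM with the clones (adjusted p = 1.3e-05). It passed the low-count filter only through the co-cultures, so that its call adds nothing beyond its presence there, and without it 1 of the other 7 export genes was higher. Sec24d and Sar1b, components of the coat of export vesicles, were not called (-0.16 and -0.12, adjusted p = 0.093 and 0.41).

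The 16 fibre substrates and binding partners, which include the collagens and elastin on which lysyl oxidases act, differed in their counts from line to line. They were 3 higher and 11 lower with KPC1, 3 and 10 with clone H, 3 and 9 with clone T and 2 and 9 with clone V, where 28.5%, 26.4%, 24.7% and 28.9% of all genes were called lower. They were 3 and 3 with clone E, 4 and 2 with clone K, 4 and 2 with clone M and 4 and 3 with clone N, where the share of all genes called lower was itself smaller, at 15.5%, 8.69%, 10.8% and 19.2%. Whether the list differed between lines beyond these shares was not tested. The median log2 fold change of the list was -0.98 with KPC1 and 0.48 with clone K. In the mean of the 7 clones 5 were higher and 4 lower, with a median of -0.19. Bgn (0.64, adjusted p = 0.00014) and Fbn1 (0.77, adjusted p = 0.0095), which encode biglycan and fibrillin, rose. Tnxb (-2.97, adjusted p = 8.6e-12) and Tgfbi (-2.16, adjusted p = 1.8e-10), which encode a tenascin and a collagen-binding adhesion protein, fell. Tnxb averaged 12.3 CPM in the mono-culture (SD 2.09) and 0.281 CPM with clone V (SD 0.0638).

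Of 12 hypoxia response genes, 4 were higher and 2 lower in the mean of the 7 clones, with a median of -0.02, beside 24.3% and 24.9% of all genes. These counts are near the background. Vegfa, the angiogenic growth factor, rose from 96.8 CPM (SD 8.12) to between 133.6 and 282.5 CPM with the clones (log2 fold change 1.03, adjusted p = 3.4e-07), and Egln3, an oxygen-sensing hydroxylase, rose too (1.43, adjusted p = 0.00074). With clones K and M only 1 of the 12 genes was called higher in each, so that Vegfa and Egln3 were not both called there. Egln3 with clone V averaged 58.1 CPM with an SD of 47.9. Adm and Ndrg1 fell (-1.61, adjusted p = 5.7e-05, and -0.58, adjusted p = 0.00056). Adm was not called lower with clones K or N. Ndrg1 was called lower with clones E, K and M only (134.1, 139.7 and 91.6 CPM, against 265.6 in the mono-culture), and its means with clone V and KPC1 were above the mono-culture, at 323.3 and 292.0 CPM, without a call. Of the marker lists, 6 of 7 epithelial markers tested were higher in the mean of the 7 clones and 0 lower, with the 2 largest changes for Krt18, from a mean of 0.161 CPM to between 54.2 and 281.0 CPM, and Krt8, from 0.0229 CPM to between 19.5 and 156.0 CPM, both of which passed the low-count filter only through the co-cultures. Muc1 rose (0.48, adjusted p = 0.026) and Krt7 was not called (adjusted p = 0.50). Epcam, Cldn4, Cldn7 and Esrp1 were not tested. Of 8 fibroblast markers 5 were higher and 2 lower: Fap (5.13, adjusted p = 6.5e-15) and Pdgfrb (0.93, adjusted p = 4.1e-05) rose, and S100a4 (-1.36, adjusted p = 1.9e-05) and Pdgfra (-0.70, adjusted p = 0.00029) fell. S100a4 was not called lower with clones K or M (395 and 292 CPM, against 527 in the mono-culture). Pdgfra was called lower with clones H, T and V and KPC1 but not with E, K, M or N. Of 4 immune and endothelial markers tested (not Ptprc, Cd3e or Cdh5), Cd68 was higher (1.01, adjusted p = 0.025), Lyz2 lower (-3.49, adjusted p = 4.4e-09), and Pecam1 and Kdr were not called (adjusted p = 0.31 and 0.20). Cd68 was not called higher with clones E, K, M or V, and Lyz2 was not called with clone K. The mean of Cd68 was 3.67 CPM with clone K (SD 0.587), against 3.37 CPM in the mono-culture (SD 1.10).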

How the data were processed

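RNA-seq of sorted mouse pancreatic fibroblasts was analysed in 36 libraries (poly(A)-selected, strand specific, 200 ng RNA, 14 PCR cycles, 76 bp paired ends). The authors deposited read counts per gene, unscaled, and RPKM values for 37746 genes, scaled by gene length and library size. The submitters' processing notes name STAR, featureCounts, edgeR and mm10. Versions and whether counting used strand are not given in the sources used here.

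Groups came from the labels. Counts were filtered by filterByExpr, scaled by TMM and fitted with edgeR 4.0.16 (R 4.3.3; robust glmQLFit, 1 coefficient per group, 36 libraries). Each line and the mean of the 7 clones were compared with the mono-culture, and the 7 clones by an F-test on 6 contrasts. P-values were adjusted by Benjamini-Hochberg over 14439 genes, with 0.05 as the threshold. A standard error is the absolute fold change (log2) over the square root of F. Log2 CPM used a prior count of 1. RPKM served to compare levels between genes. Neighbours in an order of groups were called apart where their mean log2 CPM differed by more than the pooled SD. Depth was 12532122 to 21985538 counts per library, so counting error is small for these genes. No pair of libraries within a group agreed within sampling noise (smallest chi-square per degree of freedom 4.43).

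The text names the 10 genes, of each list the 2 highest and 2 lowest log2 fold changes of the mean clonal contrast and any gene not tested, and the 2 genes most alike. Htra2, Znhit1 and Gm27177 were added after values were seen, for overlap with exons (GENCODE vM21, GRCm38). Genes and lists were chosen with earlier results of these data known. Alternatives were limma-trend 3.58.1 on log2(RPKM + 1) or log2(RPKM + 0.1), a replicate block, DESeq2 1.42.0, RLE or library-size scaling, a minimum of 10 counts in all libraries or no filter, a threshold of 0.1, a fit to only the 8 libraries compared, and leaving out each library. The fits were tested on simulated data.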

Additional observations from a re-analysis of the deposited data

Results flagged for a closer look

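Of 90 sets of 4 libraries (10 genes in 9 groups), 6 held a library far from the other 3, where chance flags about 1 set in 20, or 4.5 of 90. The gap to the nearest library as a share of the range was 0.851 for Lox with clone K (replicate 1, low), 0.834 for Lox with clone T (replicate 4, high), 0.904 for Loxl4 with clone T (replicate 4, low), 0.892 for Plod3 with clone K (replicate 4, low), 0.864 for P3h1 in the mono-culture (replicate 1, low) and 0.865 for P3h1 with clone N (replicate 4, low). The Lox difference with clone K was called without replicate 1, and that with clone T without replicate 4.

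The fold change against the mono-culture differed among the 7 clones, by the F-test among clones, for 7 genes. The same test called 67.5% of all genes tested, so this count is near the background and does not set these genes apart. The span between the highest and lowest clone on the log2 scale was 2.36 for Lox, 1.39 for Loxl1, 0.95 for Loxl4, 0.75 for Loxl3, 0.73 for Plod2, 0.70 for Plod3 and 0.54 for Serpinh1. Called changes went in both directions for Lox, from clone T to clone K, and for Plod2, from clone T to clone V. The estimates of Plod3 (-0.04 with clone M to 0.66 with clone V) and Serpinh1 (-0.38 with clone M to 0.16 with clone V) also crossed 0. Plod3 was not called lower with any line, and Serpinh1 was called with none.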

How the results depend on the processing

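Of 4580 fold changes and F-tests of the 10 genes recomputed under 46 alternatives, 4533 stayed on the same side of the threshold, 36 passed it newly, 11 lost it and 0 called values changed sign. The 4533 include 94 fold changes, called in neither fit, that changed sign. For clone E, 4 genes were called with only the 8 libraries compared, against 2. For clone M, where 1 was called, 2 were called at a threshold of 0.1, by library size only, by both limma-trend fits and with only the 8 libraries compared, and 1 to 2 when a library was left out. Serpinh1 was the added gene except with only the 8 libraries, where it was Loxl4. Plod1 was called lower with clone T and in the mean of the 7 clones by library size only (adjusted p = 0.012 and 0.026), by limma-trend on log2(RPKM + 1) (0.010 and 0.027) and log2(RPKM + 0.1) (0.010 and 0.027), and with clone T also with at least 10 counts in every library (0.032) and at a threshold of 0.1. With clone E it was called by library size only (0.048), by limma-trend on log2(RPKM + 1) (0.04996) and with only the 8 libraries compared (0.033).

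Replicate numbers are shared across groups, and the library names of the co-cultures are numbered replicate by replicate, but the labels do not say that a number marks a shared day or batch. Deviations of same-numbered libraries correlated at -0.52 to 0.69 between 2 co-cultures (median 0.14, 63 of 112 over 0.1). Between a co-culture and the mono-culture they correlated at -0.58 to 0.46 (median -0.02, 5 of 32 over 0.1). The fit used did not include the number. Whether the co-cultures share an effect of it was not tested, and some calls depended on this choice. With the number as a replicate block, 2 genes were called for clone M (Serpinh1 added, adjusted p = 0.012), and in the mean of the 7 clones Lox (0.045) and Plod1 (0.047) were added as lower. Plod1 was also called lower with clones E (0.042) and T (0.012) and Plod2 higher with clone H (0.021).

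With 4 libraries per group, small differences were at the threshold: Plod2 with clone T, Plod3 with clone N and the F-test of Serpinh1 each rested on single libraries. Export genes called in the mean of the 7 clones numbered 1 instead of 2 with at least 10 counts in every library and by both limma-trend fits, where 7 of the 8 were tested.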
